A study of Mus musculus with 3 samples.

Results

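Myosins are the motors that move along actin filaments. Conventional myosin, class II, is built from a pair of heavy chains, which hold the motor and the tail, and each heavy chain carries an essential and a regulatory light chain; phosphorylation of the regulatory light chain switches on the nonmuscle and smooth muscle forms. Unconventional myosins work outside such filaments, tethering membranes, carrying vesicles or signalling to small GTPases. The genes described here are all protein-coding genes of the deposited table whose symbols begin with Myh, Myl or Myo followed by a digit, except Myh11, the smooth muscle heavy chain. There were 49 of them among 48709 genes: 13 heavy chains, 11 light chains and 25 unconventional chains. The rule that chose them used names alone, but it was set with earlier results of these data known.

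RNA came from cells that the labels call smooth muscle, sorted from dissociated mouse lung, in 3 libraries of a single group, WT. All mice carried creERT2 under smooth muscle actin, a Cre recombinase that tamoxifen activates in cells using that promoter, together with the red fluorescent protein tdTomato. Tamoxifen was injected into the peritoneum at 75 mg/kg on each of 10 days, starting from mice 8 weeks old, and lungs were taken 2 months afterwards. No second genotype, treatment or time was available, and whether the libraries come from separate animals is not stated, so the spread between libraries may be technical.

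Library totals ranged from 16877297 to 18896263 counts. A count of 0 allows up to 3 counts, or 0.159, 0.163 and 0.178 CPM (a gene's counts scaled to a fixed library total, as counts per 1000000) in WT libraries 1, 2 and 3, for counting error only. Against the labelled cell type, 8 of 9 smooth muscle markers reached a mean of 1 CPM, but their summed level was 87.9, 116 and 87.2 CPM, and calponin, Cnn1, had 0, 7 and 5 counts. Markers of T and natural killer cells summed to 843, 853 and 724 CPM, and B cell markers to 852, 1216 and 1534 CPM. WT library 1 stood apart in summed alveolar type 2 and myeloid markers, at 2143, 456 and 538 CPM and at 874, 266 and 353 CPM in libraries 1, 2 and 3. Single genes made up most of these sums, Sftpc with 1352.5, 246 and 284 CPM and Lyz2 with 704, 189 and 235 CPM. Abca3 and Itgam, of the same lists, were lowest in library 1 by CPM. In such bulk RNA, fewer cells of a type and less RNA per cell cannot be told apart.

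Of the 49 myosin genes, 31 had a mean of at least 1 CPM, against 59.4% of all 22005 nuclear protein-coding genes, which makes 63.3% of the family. At 10 CPM or more stood 19 members, or 38.8%, against 35.8% of those genes. Every member had a count in at least 1 library, 39 had one in each library, and 10 were at 0 in some library. Together the family took 0.376%, 0.369% and 0.367% of the counts in libraries 1, 2 and 3. Counts of genes at a CPM threshold and sums of markers in CPM are not divided by length. Levels of different genes are otherwise compared below per kilobase of exon, unless another scale is named. The length is the union of a gene's annotated exons, and errors are SDs over the 3 libraries. Per kilobase of exon, 22 members reached a mean of 1 and 9 reached 10. On the same scale 42 of 48 neighbours in the order of levels overlapped in their library values. The 6 steps without overlap lay below Myh9, Myl12b, Myl12a, Myo1e, Myl9 and Myh14.

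**Figure D1:**
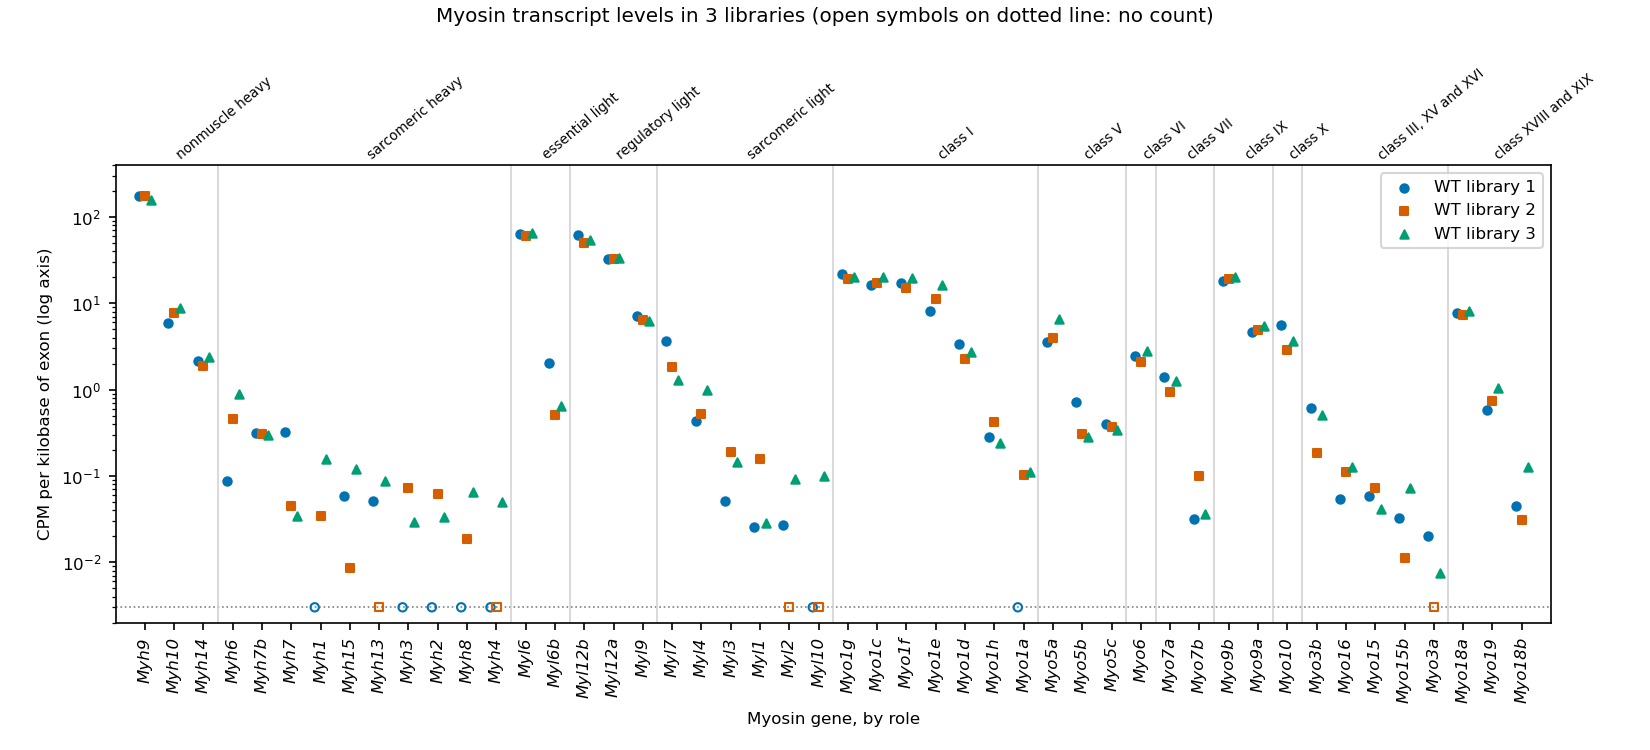
Level of 48 of the 49 myosin genes in each library, in CPM per kilobase of exon on a log axis, grouped by role; open symbols on the dotted line mark libraries with no count. Myh9 lies above all other members in each of the 3 libraries, and the sarcomeric heavy chains lie near or below 1 CPM per kilobase.

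Nonmuscle myosin IIA, encoded by Myh9 (ENSMUSG00000022443, chromosome 15, 77760587 to 77842175), had the highest level per kilobase of exon. It had 42602, 41445 and 34027 counts in libraries 1, 2 and 3, which is 2254.5, 2257.9 and 2016.1 CPM. Libraries 1 and 2 were close and library 3 was lower. The mean of 168 ± 10.7 CPM per kilobase placed it at rank 122 of the nuclear protein-coding genes per kilobase, and at rank 9 by CPM. The first place depends on the length used: per kilobase of principal annotated mRNA, a length chosen after the data were seen, Myl6 had 300.5 ± 13.7 and Myh9 293 ± 18.7, and per kilobase of longest coding sequence 421.5 ± 19.2 and 370.1 ± 23.6. Myh9 held 59.9%, 61.2% and 54.9% of all myosin counts.

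The other nonmuscle heavy chains were far lower. Myh10, nonmuscle myosin IIB (ENSMUSG00000020900, chromosome 11, 68691559 to 68816632), had 62.1, 80.5 and 92.6 CPM, lowest in library 1. Myh14, nonmuscle myosin IIC, a form typical of epithelia, had 15.6, 13.6 and 17.3 CPM, and its libraries lay close together. Within libraries the log2 ratio of Myh9 to Myh10 per kilobase was 4.51 ± 0.37, and that of Myh9 to Myh14 was 6.31 ± 0.26 (7.19 by coding length), both above 0 in each of the 3 libraries. Over the 13 heavy chains, Myh9 took 93.9% ± 1.45 of the counts per kilobase, Myh10 4.21% ± 1.0 and Myh14 1.20% ± 0.20. With the smooth muscle heavy chain Myh11 added to the sum, the share of Myh9 was 92.3%.

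Of the light chains of nonmuscle and smooth muscle myosin, Myl6, Myl12b and Myl12a came next in the order per kilobase of exon. Myl9 and Myl6b stood lower, at places 12 and 22 of the 49 members. Myl6, the essential light chain shared by both (ENSMUSG00000090841, chromosome 10, 128490860 to 128493875), had 204, 189 and 206 CPM and 62.7 ± 2.85 CPM per kilobase. Myl6b, a related essential light chain, lies only 281 bases from Myl6 on chromosome 10 and had 3.76, 0.926 and 1.19 CPM, with library 1 well above the other two. The log2 ratio of Myl6 to Myl6b was 6.14 ± 1.03 (7.32 by coding length), so neighbours on the chromosome stood at very different levels. Of the 50-base words in Myl6 transcripts, 8.38% also occur in another gene, chiefly Gm5526, so part of its count is uncertain.

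Regulatory light chains are encoded by Myl12a, Myl12b and Myl9. The first pair, neighbours 2868 bases apart on chromosome 17, are found in most cells, whereas Myl9 is abundant in smooth muscle. Their coding sequences are all 516 bases long. Myl12a and Myl12b match at 498 of 516 coding bases (96.5%) and share an unbroken run of 102 bases. Myl9 matches Myl12b at 86.4% and Myl12a at 85.7%, with no shared run longer than 35 bases. Coding bases are only a part of the union exons, of 3360 bases in Myl12a, 2770 in Myl12b and 1162 in Myl9. The first 60 coding bases are shown from 5′ to 3′ to mark where these genes differ. How far the split of counts between them rests on such differences was not tested. Capitals mark positions at which the 3 genes are not all alike (GENCODE M21 transcripts).
Myl9: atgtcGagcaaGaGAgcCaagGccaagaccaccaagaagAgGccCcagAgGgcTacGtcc
Myl12a: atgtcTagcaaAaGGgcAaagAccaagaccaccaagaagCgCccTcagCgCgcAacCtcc
Myl12b: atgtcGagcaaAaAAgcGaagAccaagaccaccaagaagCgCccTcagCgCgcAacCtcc

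Myl12b (chromosome 17, 70973920 to 70990787) had 171, 137 and 149 CPM, highest in library 1. Myl12a (chromosome 17, 70993656 to 71002878) had 111, 109 and 113 CPM, nearly level over the libraries. Myl9 (ENSMUSG00000067818, chromosome 2, 156775420 to 156781658) had 8.20, 7.52 and 7.23 CPM, and its libraries were close. Per kilobase, Myl12b made up 58.0% ± 2.37 of the regulatory light chains, Myl12a 35.0% ± 2.27 and Myl9 6.96% ± 0.34. The log2 ratio of Myl12b to Myl9 was 3.05 ± 0.11, an 8.31-fold difference over union exons. It was 4.31 over the coding sequences, which have the same length, and 3.38 over principal mRNAs. The share of Myl9 in undivided counts was 2.83% ± 0.14. The log2 ratio of Myl12a to Myl12b was -0.73 ± 0.15. That split is uncertain, since 16.4% of the 50-base words of Myl12a and 25.4% of those of Myl12b occur in another gene. For Myl12b this was mostly a second annotated entry of the same name (ENSMUSG00000117098), which overlaps both neighbours. For Myl12a the words were mostly shared under the name Myl12b, and the entries of that name were not counted apart. No word of Myl9 occurs in another gene.

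Summed over their genes, heavy chains (Myh9, Myh10 and Myh14) had 178 ± 9.37 CPM per kilobase, essential light chains (Myl6 and Myl6b) 63.8 ± 3.35 and regulatory light chains (Myl9, Myl12a and Myl12b) 94.6 ± 6.71. The log2 ratio to heavy chains was -1.48 ± 0.13 for essential and -0.91 ± 0.13 for regulatory light chains, with the same sign in each library. These directions rest on the length used. With the longest coding length they were 0.14 ± 0.13 and 0.45 ± 0.13, and with the length of the principal mRNA -0.013 ± 0.13 and -1.18 ± 0.12. The ratio of regulatory to essential light chains was 0.57 ± 0.05 over union exons but -1.16 ± 0.05 over principal mRNAs. The range over length definitions exceeded the range over libraries in all 3 ratios, so which subunit transcript is in excess cannot be read from these counts.

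**Figure D2:**
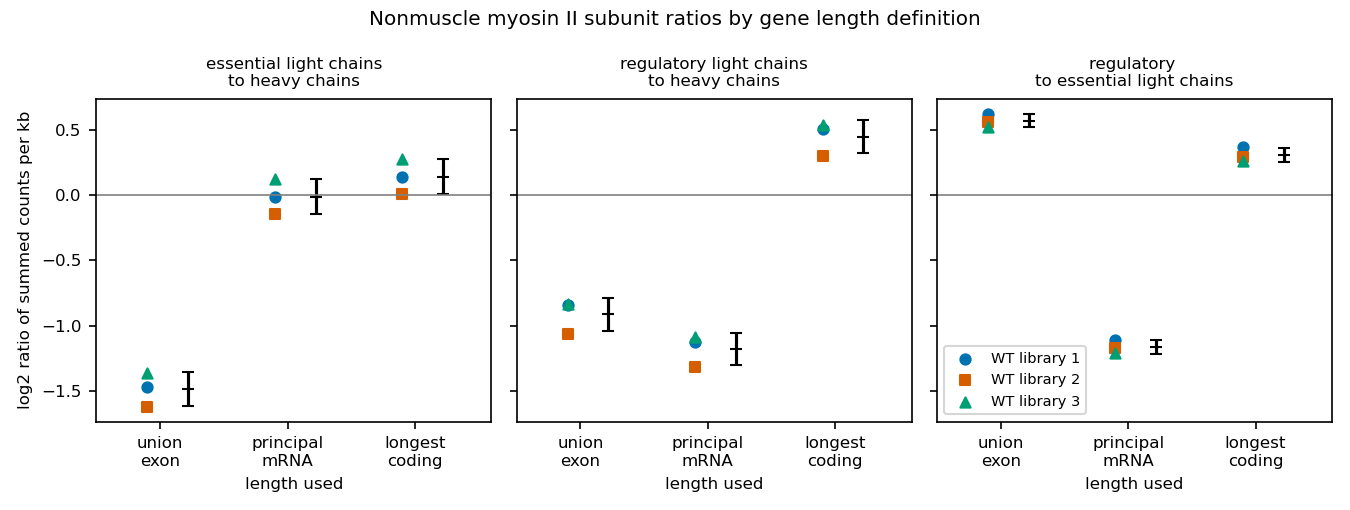
Log2 ratios of summed counts per kilobase between nonmuscle myosin II subunits, for 3 definitions of gene length; coloured symbols are libraries and black bars the mean and SD of 3. Library symbols cluster within each definition, while the essential to heavy chain ratio moves from -1.48 over union exons to 0.14 over coding lengths.

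Heavy chains of skeletal and heart muscle were low. Of 10, 3 reached a mean of 1 CPM (Myh6, Myh7 and Myh7b) and none reached 10 CPM. Without library 1 the mean of Myh7 was 0.339 CPM, and without library 3 that of Myh6 was 1.82 CPM. Myh6, the heart alpha heavy chain (chromosome 14, 54941981 to 54966927), had 11, 56 and 102 counts in libraries 1, 2 and 3, whereas Myh7, the beta and slow muscle form 3760 bases away, had 53, 7 and 5. Library 1 was thus lowest for Myh6 and highest for Myh7, and the log2 ratio of Myh7 to Myh6 had no common sign, at 1.86, -3.27 and -4.58. Myh7b, a slow-tonic relative, was even, with 39, 37 and 33 counts. Myh15, a distant relative of these chains, had 7, 1 and 13 counts. On the opposite strand, Myh7b overlaps exons of Trpc4ap, Myh7 those of Mhrt, Gm29015 and Gm31251, and Myh6 those of Gm49130. Of the 50-base words of Myh6 and Myh7, 20.2% and 15.6% occur in another gene, chiefly in each other. The few counts of Myh6, Myh7 and Myh7b are therefore uncertain, and the part of such overlap in them was not tested.

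The 6 skeletal heavy chain genes in a row on chromosome 11 (Myh3, Myh2, Myh1, Myh4, Myh8 and Myh13) had 6, 24 and 51 counts in all in the 3 libraries. The highest of them was Myh1, a fast skeletal form, with 0, 4 and 17 counts, and the lowest was Myh4 with 0, 0 and 5. Embryonic Myh3 had 0, 8 and 3 counts, Myh2 had 0, 8 and 4, perinatal Myh8 had 0, 4 and 13, and Myh13 of extraocular muscle had 6, 0 and 9. Between 4.76% and 25.4% of the 50-base words of these genes occur elsewhere, mostly in each other, so single values are uncertain. Summed skeletal muscle markers had 22.9, 21.9 and 27.2 CPM, with 6 of 9 at a mean of 1 CPM or more and the fast troponin gene Tnnc2 at 0 in all libraries. Their part in the result was not tested.

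Sarcomeric light chains were also low, with 2 of 6 at a mean of 1 CPM. Myl4, the atrial and embryonic essential light chain, had 38, 44 and 77 counts, highest in library 3. Myl7, the atrial regulatory light chain, had 41, 20 and 13 counts, highest in library 1. Ventricular Myl2 and Myl3 had 1, 0 and 3 and 2, 7 and 5 counts. Within libraries the atrial form exceeded the ventricular form in both pairs, by 2.26 ± 0.76 on the log2 scale for Myl4 to Myl3 (3.52 by coding length) and by 5.76 ± 1.83 for Myl7 to Myl2, and the latter rests on 4 counts of Myl2. Fast skeletal Myl1 had 1, 6 and 1 counts, and Myl10 had 0, 0 and 2. Heart muscle markers summed to 37.8, 25.9 and 46.9 CPM, 7 of 10 at a mean of 1 CPM or more, with the atrial gene Sln at 0, 0 and 2 counts; their part in the result was not tested.

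Among unconventional myosins, the highest mean level per kilobase of exon was in class I. These single-headed motors link membranes to the actin cortex, and 7 of their 8 genes reached a mean of 1 CPM and 6 reached 10 CPM. Myo1g (ENSMUSG00000020437, chromosome 11, 6506548 to 6520965), a motor of the lymphocyte plasma membrane, had 153, 133 and 141 CPM, or 20.4 ± 1.47 CPM per kilobase. Myo1f (ENSMUSG00000024300, chromosome 17, 33555719 to 33607764), expressed mainly in leukocytes, had 84.6, 74.0 and 98.7 CPM. Myo1c, a broadly expressed member, had 108, 112 and 133 CPM, highest in library 3. Over the class, Myo1g took 28.5% ± 3.44 of the counts per kilobase, Myo1c 24.8% ± 0.80, Myo1f 23.9% ± 1.32 and the broadly expressed Myo1e 16.2% ± 4.10. The levels of Myo1g and Myo1c overlapped per kilobase of exon. They did not overlap per kilobase of coding sequence, at 49.8, 43.2 and 45.8 for Myo1g against 34.0, 35.0 and 41.6 for Myo1c in libraries 1, 2 and 3, nor per kilobase of principal mRNA. Myo9b of class IX, described below, also overlapped Myo1g per kilobase of exon. It had 17.97, 19.24 and 20.24 against 21.98, 19.08 and 20.2 for Myo1g, which was higher in library 1 only. Per kilobase of principal mRNA the means were 20.3 for Myo9b and 43.0 for Myo1g. T, natural killer and B cell markers had the summed levels given above, and the part of those cells in the result was not tested.

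The rest of class I was lower. Myo1d, which is broadly expressed, had 21.9, 14.8 and 17.7 CPM, highest in library 1. Myo1h had 32, 46 and 24 counts and overlaps exons of Kctd10 on the opposite strand. Myo1a, the brush border motor of gut epithelium, was lowest, with 0, 7 and 7 counts. In paired comparisons within libraries, the log2 ratio was 0.59 ± 0.41 for Myo1f to Myo1e and 2.88 ± 0.18 for Myo1g to Myo1d (3.68 by principal mRNA). Both held their sign in each of the 3 libraries.

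Class IX myosins carry a domain that inactivates a small GTPase and so couple movement to signalling. Myo9b (chromosome 8, 71272714 to 71360713), which is prominent in leukocytes, had 135, 144 and 152 CPM, and Myo9a had 59.9, 64.5 and 70.4 CPM. Per kilobase their levels were 19.2 ± 1.13 and 4.98 ± 0.41. Their log2 ratio was 1.97, 1.96 and 1.91 (mean 1.15 undivided by length) in libraries 1, 2 and 3, the smallest SD (0.034) of the 17 pairs. Scaled by TMM, their highest library exceeded the lowest by 1.04-fold in both genes, less than for any other member with counts in each library. Myo18a, a class XVIII myosin of Golgi and membrane organisation, had 124, 117 and 130 CPM, while its muscle relative Myo18b had 9, 6 and 23 counts, a log2 ratio of 7.04 ± 0.96. Myo9b overlaps exons of Haus8 on the opposite strand, and Myo9a those of Gm20275 and Gm48805.

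Vesicle motors and their relatives were intermediate. Class V myosins carry organelles toward the cell edge. Myo5a had 988, 1088 and 1656 counts, highest in library 3, whereas Myo5b and Myo5c, typical of epithelia, had 133, 55 and 46 and 73, 66 and 55. The log2 ratio of Myo5a was 3.51 ± 1.14 to Myo5b and 3.62 ± 0.60 to Myo5c (4.31 by principal mRNA), although Myo5a and Myo5c are neighbours 8325 bases apart on chromosome 9. Myo6, the motor that walks toward the pointed end of actin, had 29.3, 25.1 and 34.0 CPM. Myo10, which carries cargo into filopodia, had 56.2, 29.3 and 37.2 CPM, highest in library 1. Myo19, a mitochondrial motor, had 4.13, 5.18 and 7.35 CPM and overlaps exons of Pigw and Znhit3 on the opposite strand.

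Of the myosins of classes III, VII, XV and XVI, only Myo7a reached a mean of 10 CPM. Myo7a, a hair cell and retinal motor, had 12.1, 8.06 and 10.8 CPM, and its gut relative Myo7b had 4, 12 and 4 counts. Of classes III, XV and XVI only Myo3b reached a mean of 1 CPM, with 82, 24 and 61 counts, lowest in library 2. Myo3a had 3, 0 and 1 counts, Myo15 14, 17 and 9, Myo15b 6, 2 and 12, and Myo16 8, 16 and 17. The ratio of Myo15b to Myo15 had no common sign over the libraries. In all, 15 of 17 pairs kept their sign in each library, with the same count under each length definition. With 3 libraries, exact permutation of signs, two-sided, gives no p under 0.25, so these ratios carry no test.

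Because the libraries form 1 group, the only test across the table asked whether a gene's counts differed between libraries by more than counting error, by a chi-square test of homogeneity with TMM-scaled library sizes and Benjamini-Hochberg adjustment over 23317 genes. Of all genes tested, 70.0% passed an adjusted p of 0.05, and of 44 myosin genes tested 34 did (77.3%), close to that background and to the 73.1% of nuclear protein-coding genes. At 10 CPM or more, 16 of 19 members passed, beside 79.0% of nuclear protein-coding genes at that level. Fewer than 10 counts kept Myh4, Myl1, Myl2, Myl10 and Myo3a out. By TMM-scaled level, 15 of the 34 varying members were highest in library 1, 4 in library 2 and 15 in library 3. Of the 16333 varying genes of the whole table, 6573, 5128 and 4632 were highest in libraries 1, 2 and 3. These were 28.2%, 22.0% and 19.9% of all genes tested, varying or not. By CPM the 34 varying members split as 11, 4 and 19. The varying genes highest in each library by CPM were 24.3%, 19.5% and 26.2% of all genes tested, again varying or not. Leaving out libraries 1, 2 and 3 in turn left 16 of 43, 24 of 39 and 18 of 35 tested members varying. Among all genes tested, 38.2%, 53.6% and 56.8% varied in these cases. Passing each time were 4 members, namely Myh6, Myh9, Myo10 and Myo1e. The share of all genes that passed each time is not given here, so this count has no background beside it. The coefficient of variation over libraries had a median of 11.2% for the 19 members at 10 CPM or more, beside 13.7% for the 7883 nuclear protein-coding genes at that level.

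Members highest in library 1 included Myo10, Myo5b, Myl6b and Myh7. Myo10, with 1061, 538 and 627 counts, varied with an adjusted p of 9.75e-46 and of 0.029 without library 1. For Myo5b the adjusted p was 1.15e-12, and 0.50 without library 1. For Myl6b it was 4.69e-11, and 0.73 without library 1. Myh7 had an adjusted p of 1.39e-14, and of 0.68 without library 1, so its libraries 2 and 3 did not differ beyond counting error. By CPM, library 1 was also highest for 4 of 5 alveolar type 2 markers, 6 of 6 airway markers (summed 13591, 2739 and 7821 CPM), 5 of 6 endothelial markers (739, 433 and 554 CPM) and 7 of 8 myeloid markers. Most of the airway sum was a single gene, Scgb1a1, with 13191.7, 2631.9 and 7640.9 CPM in libraries 1, 2 and 3. Foxj1, Dnah5, Rsph1 and Ccdc153 of that list had means of only 2.13, 1.10, 2.04 and 1.72 CPM. The part of these cell types in the result was not tested.

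**Figure D3:**
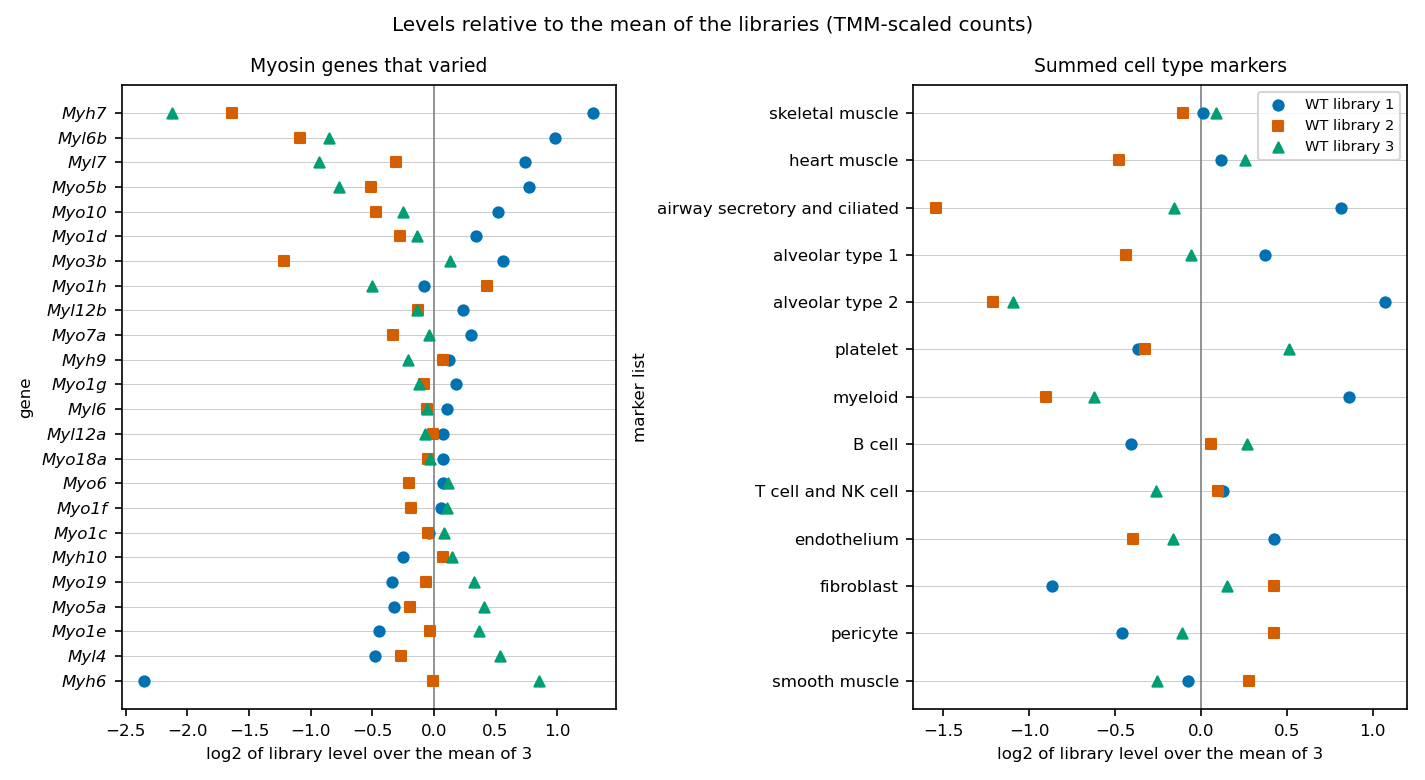
Left, log2 of the TMM-scaled level in each library over the mean of 3 for varying myosin genes at a mean of 1 CPM or more, all but 1 of them; right, the same for summed marker lists. Myh7, Myl6b and Myo5b are highest in library 1, as are the alveolar type 2 and myeloid lists, and Myh6, Myl4 and Myo1e are highest in library 3.

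Members highest in library 3 included Myo1e, Myo5a, Myh10 and Myh6. Myo1e, with 877, 1178 and 1549 counts, varied with an adjusted p of 2.34e-39, and passed with any 1 library left out. Myo5a had an adjusted p of 1.09e-43, and of 0.062 without library 3. Myh10 had 3.81e-12, and 0.23 without library 1. Myh6 had 1.57e-15, and 0.0014 at most when a library was left out. By CPM and by TMM-scaled level, B cell markers were highest in library 3 for 5 of 5 genes. So were 4 of 5 platelet markers, which summed to only 3.39, 3.60 and 6.99 CPM in libraries 1, 2 and 3. Of 10 heart muscle markers, 5 were highest in library 3 by TMM-scaled level, 3 in library 2 and 2 in library 1. The part of any of these cell types in the result was not tested. Myo9a, Myo9b and Myh14, at 10 CPM or more, did not pass, with adjusted p of 0.54, 0.39 and 0.11. They did pass with libraries scaled by their totals, at 0.0010, 0.00029 and 0.027. Conversely Myl12a and Myo1h passed with scaling by TMM or DESeq2 factors but had 0.50 and 0.066 by totals.

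A list of genes that act on myosins was described beside the family, in CPM within each gene. Of 10 kinases, 6 had a mean of at least 10 CPM. Rock1 and Rock2, kinases that raise light chain phosphorylation, had 327 ± 23.4 and 144 ± 16.7 CPM, and the light chain kinase Mylk had 64.4 ± 9.57 CPM. Skeletal Mylk2 had no count in any library, which allows up to 0.178 CPM. Of 6 genes of myosin phosphatase and its inhibitors, 5 reached 10 CPM: the targeting subunit Ppp1r12a had 306 ± 39.5 CPM, the catalytic subunit Ppp1cb 142 ± 14.1 and Ppp1r12c 83.5 ± 7.75. The smooth muscle inhibitor Ppp1r14a had 4.18, 4.90 and 8.06 CPM.

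Calmodulin, the light chain of most unconventional myosins, was measured for Calm2 and Calm3 at 209 ± 37.7 and 76.0 ± 6.49 CPM. Of the chaperones that fold myosin heads, the general form Unc45a had 67.5 ± 11.6 CPM and the striated muscle form Unc45b 3.86 ± 0.16 CPM. Smyd1, a muscle methyltransferase that works with these chaperones and was listed with them, had 0.298 ± 0.211 CPM. Cargo adaptors numbered 9, all at 1 CPM or more. Rab27a, which recruits Myo5a to granules, had 58.5 ± 12.1 CPM, while Calcoco1 and Tom1l2 had 48.0 ± 5.96 and 23.2 ± 6.25 CPM. Myrip, which links Rab27a to Myo7a, had 2.45 ± 0.97 CPM. By the same test between libraries, 7 of 9 kinases, 5 of 6 phosphatase genes, both of these calmodulin genes, 1 of 3 genes of the chaperone list and 8 of 9 adaptors varied. The share was 70.0% over all genes tested and 73.1% over nuclear protein-coding genes. Mylpf, the fast skeletal regulatory light chain whose symbol falls outside the naming rule, had 57, 49 and 75 counts.

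**Figure D4:**
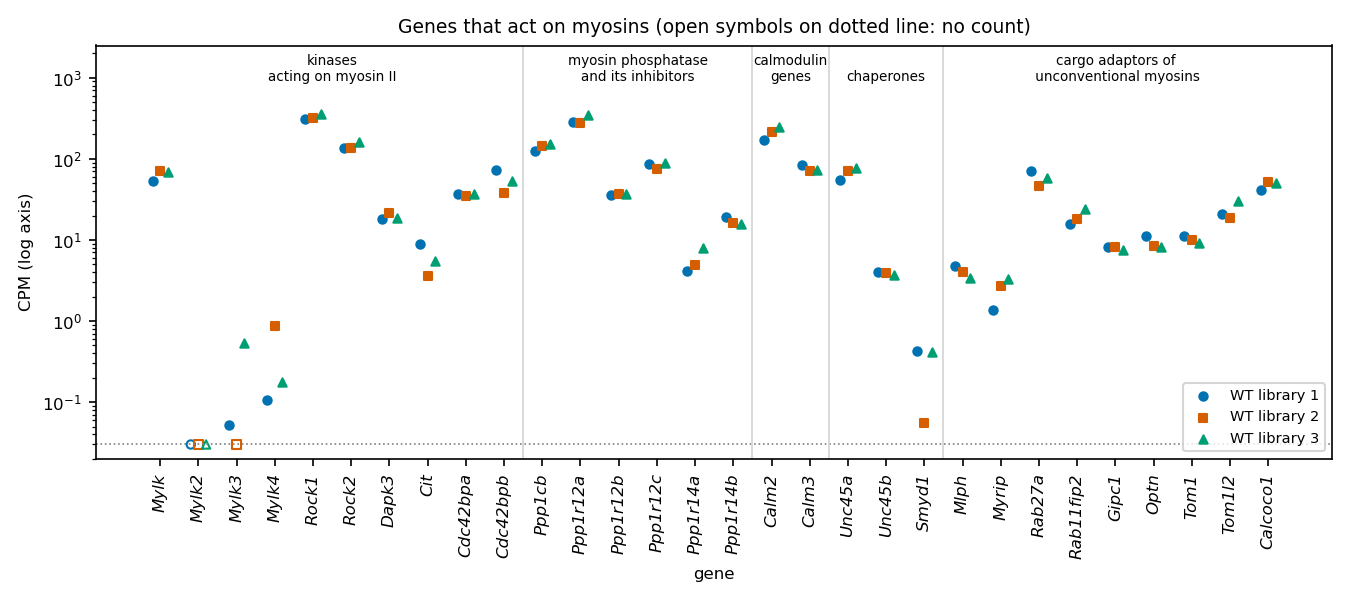
Level in each library of kinases, phosphatase genes, calmodulin genes, chaperones and cargo adaptors that act on myosins, in CPM on a log axis; open symbols on the dotted line mark no count. Rock1 and Ppp1r12a lie above 250 CPM in each library, and Mylk2 has no count.

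Promoter windows were searched for the CArG box, the site of serum response factor, a regulator of muscle and actin genes. RefSeq (GRCm38.p6) windows, from 250 bases before to 50 after a start, were found for 44 of the 49 genes. The pattern searched for matches both strands alike, although the letters of a single box can differ between strands. A box lay in some window of 7 of these 44 genes (15.9%), against 1.81% of 27025 genes with a window. Stretches upstream of the start and outside annotated exons are shown for 5 of the 7, 5′ to 3′ on the strand of the gene, with the box in capitals, because genes that share the box differ so widely in level.
Myl9, chr2:156775288-156775327, plus strand: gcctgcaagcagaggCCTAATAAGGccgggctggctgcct
Myo1e, chr9:70207303-70207342, plus strand: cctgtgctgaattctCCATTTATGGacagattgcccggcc
Myl7, chr11:5898819-5898858, minus strand: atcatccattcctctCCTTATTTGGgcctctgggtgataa
Myl3, chr9:110763578-110763617, plus strand: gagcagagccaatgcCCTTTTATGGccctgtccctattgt
Myh4, chr11:67237693-67237732, plus strand: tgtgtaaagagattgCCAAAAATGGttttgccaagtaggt

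The boxes of Myl9, Myo1e, Myl7 and Myh4 lay outside annotated genes and that of Myl3 in an intron of its gene, whereas those of Myl6 and Myh13 overlapped coding exons. In the order shown, the levels were 6.58 ± 0.43 CPM per kilobase for Myl9, 11.8 ± 4.01 for Myo1e, 2.28 ± 1.24 for Myl7, 0.128 ± 0.069 for Myl3 and 0.0164 ± 0.0284 for Myh4. A match describes these letters only, and Myh9 had none in its window.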

How the data were processed

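Whole-number read counts per mouse gene, not normalized, are what the authors deposited. The submitters' processing notes list STAR 2.6.1d, featureCounts 1.6.3, Trimmomatic 0.38, FastQC and DESeq2 1.18.1, with neither order nor settings. The notes name a human build, but the gene IDs are mouse, and 41 of the 49 members have the coordinates of GENCODE M21 (GRCm38). Per the labels' protocols, libraries were stranded total RNA. The strand setting of the counting is not stated, and 16 members overlap exons of a gene on the opposite strand. Columns, named as controls, were matched to WT libraries by number.

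CPM used library totals, and lengths were union exons. Ratios used a prior of 0.5 counts, and subunit sums none. The test between libraries used counts scaled by TMM factors (edgeR 4.0.16, R 4.3.3) for genes with at least 10 counts, and was tested on simulated data. Alternatives were DESeq2 1.42.0 size factors, other filters and lengths, and leaving out each library. The rule for naming took members at 10 CPM or more, the extremes of each role, the pairs, the 5 widest between libraries, and the top and lowest pathway genes; other members were named after their values were seen. Members and lists were chosen with earlier results of these data known. Results for 1 member and some other items are not reported here.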

Additional observations from a re-analysis of the deposited data

How the results depend on the processing

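No paired analysis was possible because there is only 1 group. The count of members at 10 CPM or more was 19 and fell to 9 per kilobase of exon; under the other scalings and without each library it stayed within 1.5 times. Members varying beyond counting error numbered 16 to 24 with a library left out, against 34 with all 3; the count was 16 without library 1 and 18 without library 3. An exact multinomial test for genes of at most 300 counts, chosen after seeing the data, gave 34 again, all of them the same genes. Log2 subunit ratios depended on gene length. Undivided by length they were -3.49 for essential to heavy chains, -3.07 for regulatory to heavy chains and 0.42 for regulatory to essential chains. With the longest coding length they were 0.14, 0.45 and 0.31, the first pair reversed. With principal mRNA lengths, chosen after seeing the data, they were -0.013, -1.18 and -1.16, the last reversed. The share of Myh9 in heavy chains was 95.5% undivided, 95.6% by coding length, 95.5% by principal mRNA and 92.3% with Myh11 included. Mean CPM of the 49 members moved by less than 1 SD with TMM or DESeq2 scaling. Leaving out 1 library moved the mean of 17 members by over 1.5 times; 3 of these had a mean of 1 CPM or more, namely Myh7 (0.339 without library 1), Myl6b (1.06 without library 1) and Myh6 (1.82 without library 3). Of the 17 mean pair ratios, 7 moved by over 1 SD undivided by length, 7 by coding length and 9 by principal mRNA; none turned its sign under these or without a library. Members with few counts are limited by depth: at 3 counts the floor is 0.159 to 0.178 CPM.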
